A study of Mus musculus with 6 samples.

Results

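Macrophages of the mouse mesentery were compared between 7 d and 24 h after ID8 cells had been placed in the peritoneal cavity, with 1 library on each side. A gene was a member of the comparison when its FPKM (fragments per kilobase of transcript, scaled to a fixed number of mapped fragments) was at least 10 in one of these 2 libraries, which held for 6889 of the 23946 gene symbols in the table (28.8%). Just inside this limit were Pi4kb and Mlst8, with a higher value of 10.0031 and 10.0121, and just outside it Msantd4 and Adipor2, with 9.9901 and 9.9911. Each difference is MY 7d minus MY 24h on the log2(FPKM + 1) scale, and a gene is said to have risen or fallen when this difference was 2-fold or more. With 1 library per condition there is no replicate check, no error and no p-value on any value here, and each difference describes 2 libraries.

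ID8 cells, a C57BL/6 mouse line of ovarian carcinoma, were injected intraperitoneally. The mice were inbred C57BL/6 females (C57BL/6NHsd) of 6 to 8 weeks of age, and the labels name no transgene or engineered allele. The study used 9 mice, handled as 3 groups of 3, and gave 6 libraries in all, from the omentum (OM) and the mesentery (MY) before injection (naive) and 24 h and 7 d after it. Tissue was dissociated with a kit for adipose tissue, and CD45+CD11b+F4/80+ cells were sorted. Each library appears to stand for pooled cells of 3 mice, although the labels do not tie mice to libraries. In MY naive, MY 24h and MY 7d the summed FPKM was 526887, 572553 and 536503. The table holds no read counts. By the commonest ratio of low FPKM values, which is a rough measure, MY 7d was sequenced 1.05 times as deeply as MY 24h.

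The mesentery is the fold of peritoneum and adipose tissue that carries vessels and lymphatics to the gut, and it holds lymph nodes beside the macrophages of its fat. Macrophages engulf dying cells and debris, handle lipid, iron and heme, and release chemokines, which draw other leukocytes to a site. B cells mature in lymphoid tissue, and plasma cells, their descendants, secrete antibody in large amounts and carry an enlarged endoplasmic reticulum (ER) with its folding enzymes for this purpose.

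The sort was checked against its markers. Ptprc (CD45) was at 158 FPKM in MY 24h and 208 in MY 7d, Itgam (CD11b) at 52.0 and 27.8, and Emr1 (F4/80) at 68.6 and 37.5. The complement genes C1qa, C1qb and C1qc, which tissue macrophages express, were at 795, 939 and 1029.8 FPKM in MY 24h. Transcripts of lymphocytes were also abundant in both libraries: Cd3e, a chain of the T cell receptor complex, was at 104 and 256 FPKM, Cd79a, a chain of the B cell receptor complex, at 222 and 635, and Gzma, a granzyme of NK and cytotoxic T cells, at 667 and 449. Most B and T cells carry little or no F4/80, so the libraries went in part against their label. They are described here as sorted mesenteric cells, and the words "macrophage list" or "B cell list" refer to marker genes. In such bulk RNA, fewer cells of a type and less RNA per cell cannot be told apart. Of the 10 fibroblast, 10 mesothelial and epithelial and 10 endothelial markers in the table, 1, none and 1 were members. The fibroblast marker Col1a1 was at 0.132 and 0.110 FPKM, the mesothelial marker Upk3b at 0.0140 and 0.0669, and the endothelial marker Cdh5 at 0.320 and 0.151. The 2 members were Gsn (gelsolin), at 105 and 122 FPKM, and Pecam1 (CD31), at 43.5 and 45.2, both of which leukocytes also express.

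Between 24 h and 7 d, 161 members rose (2.34%), 262 fell (3.80%) and 6466 stayed within 2-fold (93.9%). The median difference of all members was 0.01, with quartiles of -0.30 and 0.29. Genes that rose thus made up 38.1% of the 423 that changed. This split depended on scaling: after both libraries were rescaled to a sum of 1000000, 234 rose and 217 fell, so that the rises made up 51.9%, and the median was 0.10. Of the members, 6028 were at 10 FPKM or more in both libraries, of which 106 rose and 136 fell. Another 450 were members only through MY 24h, of which 126 fell, and 411 only through MY 7d, of which 55 rose. The direction of most of their differences was set by the rule of membership, so the number of such members is given for several of the lists below. In all, 14 members were listed at 0 in MY 7d and 1 in MY 24h. Most of the zeros were short RNAs (11 of the 14 in MY 7d, and Snord34 in MY 24h), for which FPKM is imprecise. The 24 short RNA members, of which 1 rose and 16 fell, are not discussed further. The other 3 zeros in MY 7d were Cela2a, Ctrb1 and Pnlip, all of which encode digestive enzymes of the pancreas.

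**Figure D1:**
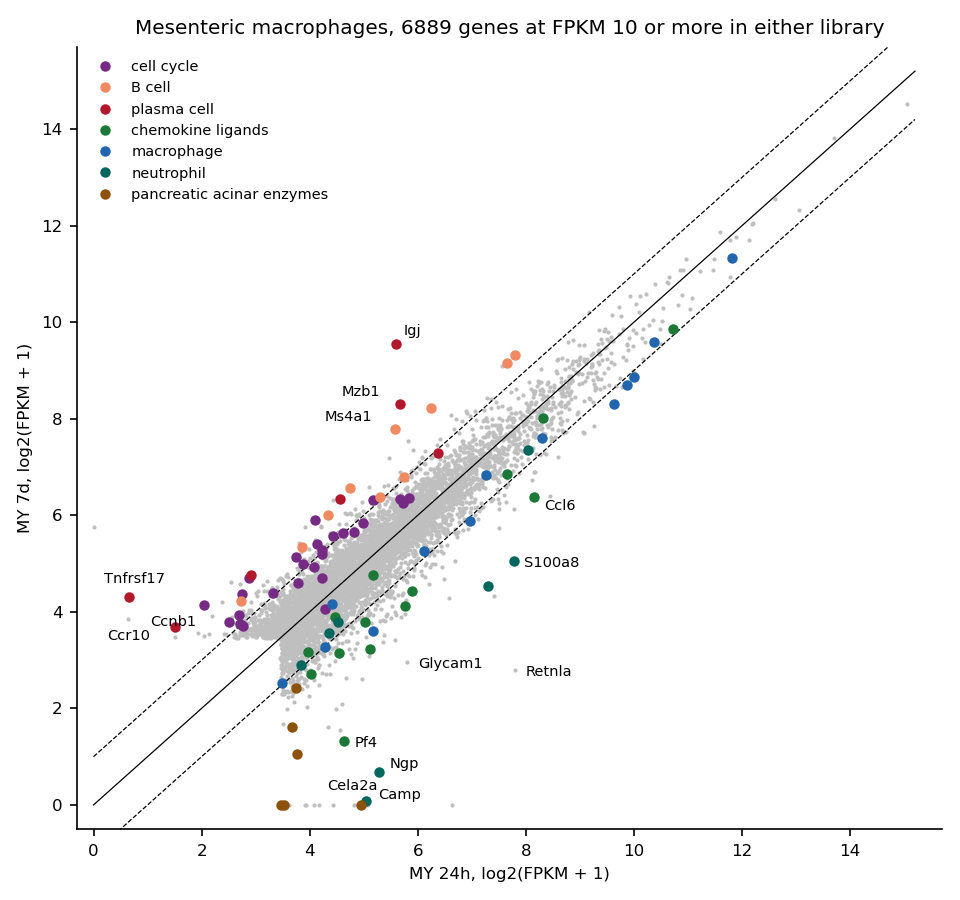
Level of the 6889 members in MY 24h (horizontal axis) and MY 7d (vertical axis), both as log2(FPKM + 1), with 1 point per gene, a solid line of equality and dashed lines at a 2-fold difference. All 10 B cell genes and 6 of 7 plasma cell genes lie above the upper dashed line, with Igj, Tnfrsf17 and Ccr10 farthest from it, while Retnla, Camp, Ngp, Pf4 and the pancreatic enzymes lie far below the lower one.

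The largest rises were in genes of antibody-secreting cells. Igj encodes the joining chain of polymeric IgA and IgM. It was at 428 FPKM in MY naive, 47.2 in MY 24h and 751 in MY 7d, a rise of 3.96 (15.9 times). Tnfrsf17, which encodes the survival receptor BCMA of plasma cells, was at 17.5, 0.578 and 18.8 FPKM and rose by 3.65. Ccr10, a chemokine receptor that guides IgA plasma cells to mucosal surfaces, was at 12.2, 0.550 and 13.4 FPKM and rose by 3.21. In each of these 3 genes the 24 h library stood below both others, and the value at 7 d lay above that of the naive library. Mzb1, an ER protein of marginal zone B cells and plasma cells, was at 198, 49.8 and 315 FPKM and rose by 2.64. Sdc1 (CD138), the surface proteoglycan by which plasma cells are usually recognised, was at 6.11, 1.85 and 11.9 FPKM and rose by 2.18.

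In the genome build of the files (NCBI37/mm9), and by the GENCODE M1 annotation, Igj spans chr5:88949537-88956916 on the minus strand with up to 4 exons in a transcript. Tnfrsf17 spans chr16:11313905-11320167 on the plus strand with 3 exons, and Ccr10 spans chr11:101034311-101036757 on the minus strand with 2. The FPKM were given per gene symbol, so exons, introns and UTRs cannot be told apart in these values.

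Of the plasma cell list, 12 genes were named, 8 were in the table and 7 were members. Of these 7, 6 rose and none fell, with a median of 2.18 against 0.01 over all members, and 3 were members only through MY 7d. Besides the genes above, Derl3, a factor of ER-associated degradation, was at 27.3, 6.50 and 26.2 FPKM (1.86), and Pou2af1, the B cell coactivator OBF-1, at 52.2, 22.6 and 80.3 FPKM (1.79). Xbp1, the transcription factor of the secretory programme, was at 123, 82.0 and 157 FPKM, with a difference of 0.92 that missed 2-fold. Prdm1 (Blimp-1) was no member, at 4.93 and 6.31 FPKM. The summed FPKM of the 8 genes was 859 in MY naive, 215 in MY 24h and 1365 in MY 7d.

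Every member of the B cell list rose, 10 of 10, with a median of 1.51 and a range of 1.06 to 2.19. Of the 10, 1 was a member only through MY 7d. The list had 12 genes in the table, and the 2 that were no members, Pax5 and Ebf1, stood at 2.67 and 3.27 FPKM in MY 24h and at 6.73 and 8.89 in MY 7d. Ms4a1 (CD20) was at 88.8, 47.1 and 219 FPKM in the naive, 24 h and 7 d libraries. Faim3, the Fc receptor for IgM, was at 115, 74.5 and 297 FPKM (1.98), Fcer2a (CD23), a marker of follicular B cells, at 51.8, 25.9 and 93.0 (1.81), and Cd79a at 336, 222 and 635 (1.51). In all of these the 7 d value was the highest of the 3 mesenteric libraries. Summed over the list, the level was 1081 FPKM in MY naive, 705 in MY 24h and 2141 in MY 7d.

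Receptors that keep B cells alive and place them in follicles rose as well, while some of their ligands fell. In a list of 14 such genes, which was put together after these values had been seen, 13 were members, of which 7 rose and 2 fell. Among receptors, Tnfrsf13c (the BAFF receptor) was at 20.5 FPKM in MY 24h and 78.8 in MY 7d (1.89), Cxcr5, which leads B cells towards follicles, at 14.1 and 52.9 (1.84), and S1pr1, which mediates exit from lymphoid tissue, at 59.1 and 162 (1.44). The ligands Tnfsf13 and Cxcl13 went the other way. Tnfsf13 (APRIL), a ligand of BCMA, was at 41.9 and 14.5 FPKM (-1.47), and Cxcl13, the ligand of CXCR5, was at 31.6 and 12.9 FPKM (-1.23). Both ligands were near their naive level in MY 7d, at 13.3 and 12.6 FPKM in MY naive.

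**Figure D2:**
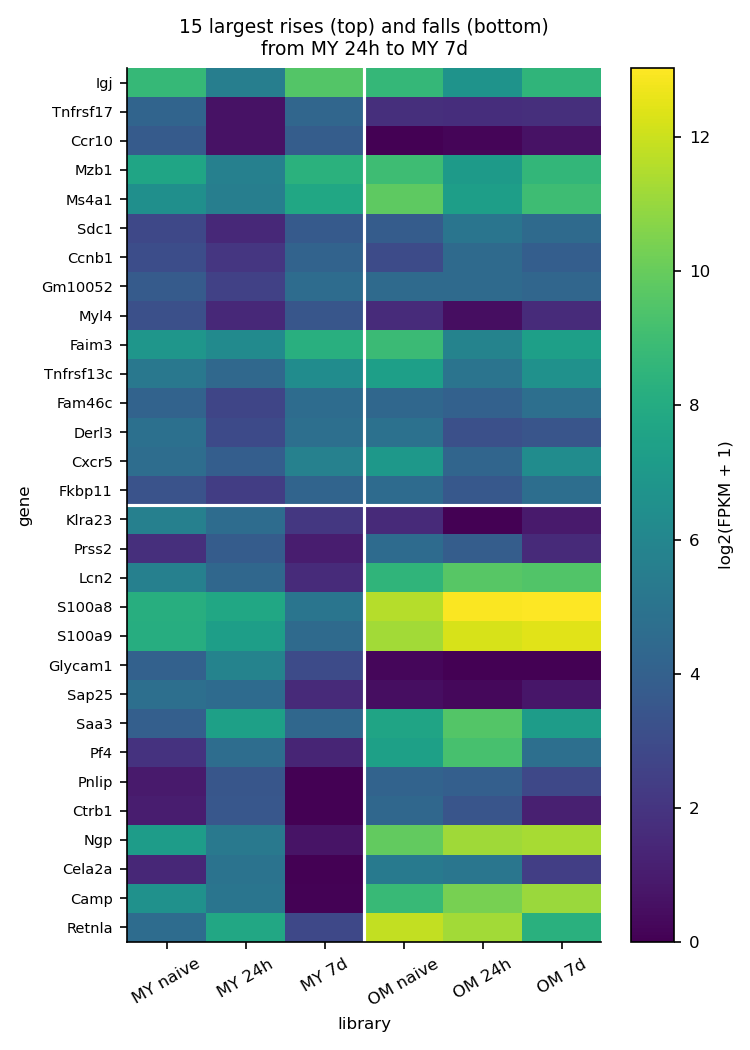
Level of the 15 genes with the largest rises (upper block) and the 15 with the largest falls (lower block) from MY 24h to MY 7d, as log2(FPKM + 1) in colour, in all 6 libraries (columns). Most rising genes are darkest in MY 24h among the mesenteric libraries, and Camp, Ngp, S100a8 and S100a9 are darkest in MY 7d while they stay bright in all 3 omental libraries.

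T cell genes moved in the same direction by less. All 13 members of the T cell list had a positive difference, 6 of them of 2-fold or more, with a median of 0.87. Of the 13, 2 were members only through MY 7d, and the 6 rises were among the other 11. Cd8a was at 44.1, 24.7 and 64.0 FPKM in the naive, 24 h and 7 d libraries (1.34), Cd8b1 at 195, 118 and 284 (1.26), and Cd3e at 237, 104 and 256 (1.29). Cd4 was at 47.8, 49.5 and 68.1 FPKM, a difference of 0.45. Cd247, at 47.5 and 96.2 FPKM, lay just past the limit, so that 5 members passed it after a rescaling by the median ratio.

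NK cell genes did not follow. All 14 genes of the list were members and lower in MY 7d, 3 of them by 2-fold or more, with a median of -0.60. Of the 14, 4 were members only through MY 24h, so the rule of membership set their direction. Of these 4, 1 (Klra9) fell by 2-fold or more, and of the other 10 members 2 did. The 3 that fell were Klra9 (21.4 and 8.71 FPKM), Klra8 (26.0 and 10.9) and Klre1 (53.7 and 24.3), which encode lectin-like receptors of NK cells. Klra23, a receptor of the same gene cluster, fell most, from 23.1 to 3.26 FPKM (-2.50). Near-identical Klra genes may share reads, so single values in this family are uncertain. Ncr1 (NKp46), the defining receptor, was at 148, 72.9 and 54.4 FPKM and Gzma at 1092, 667 and 449 FPKM in the naive, 24 h and 7 d libraries, and for both the order was naive, 24 h, 7 d from high to low. The mean level of the list on the log2(FPKM + 1) scale was 6.31, 5.57 and 4.89.

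Many proliferation genes rose. Of 38 cell cycle genes in the table, 26 were members, 15 of which rose and none of which fell, with a median of 1.04. Of the 26, 8 were members only through MY 7d, and of the 18 at 10 FPKM or more in both libraries 8 rose. The mean level of all 38 genes on the log2(FPKM + 1) scale was 3.92, 3.24 and 4.24 in the naive, 24 h and 7 d libraries. Ccnb1 (cyclin B1), which drives entry into mitosis, was at 7.56, 3.12 and 16.7 FPKM (2.10). Ccna2 (cyclin A2) was at 16.0, 6.39 and 25.0 FPKM (1.81), Rrm2, the subunit of ribonucleotide reductase that cycles with S phase, at 36.4, 16.1 and 58.6 (1.80), and the mitotic kinase Plk1 at 11.7, 5.74 and 19.6 (1.61). The replicative helicase subunits Mcm2, Mcm4 and Mcm6 also rose (1.27, 1.04 and 1.14), whereas Mcm3, Mcm5 and Mcm7 were higher by 0.83, 0.96 and 0.86. Bub1b, a kinase of the spindle checkpoint, was the only member with a negative difference, at 18.6 and 15.6 FPKM. Mki67 was no member, at 1.72 and 4.07 FPKM. Which cells carried these transcripts was not tested.

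Promoters were searched for 14 motifs, in the 250 bases before the gene start (RefSeq, GRCm38.p6) and on both strands. Of the 26 members of the cell cycle list, 22 had a promoter in this set. The CCAAT box (CCAAT), which binds the factor NF-Y, was in 17 of the 22 (77.3%), against 41.0% of the members and 37.5% of all promoters. It was as common in 2 overlapping lists described below. These were heat shock genes and chaperones (11 of 14, 78.6%) and secretory genes (23 of 30, 76.7%). The core of the cell cycle homology region (TTTGAA) was in 6 of the 22 (27.3%), against 12.7% of the members and 18.3% of all promoters. The E2F site (TTTCCCGC) was in 1 of the 22 (4.55%), against 2.34% of the members and 1.03% of all promoters. Of the other 11 motifs, 4 were each in 1 of the 22 (4.55%). These were an interferon-stimulated response element (3.84% of the members and 3.46% of all promoters), a gamma-activated site (TTCNNNGAA, 7.23% and 8.13%), an NF-kB site (0.410% and 0.414%) and a cAMP response element (TGACGTCA, 3.02% and 1.77%). The other 7 were in none of the 22. They were a serum response element (0.0518% of all promoters), the lysosomal CLEAR element (0.270%), a PU.1 site (GAGGAAGT, 2.79%), a T-box site (AGGTGTGA, 1.30%), a sterol regulatory element (0.0814%), the octamer (ATGCAAAT, 1.81%) and the ER stress response element, which is described with the secretory genes. With single matches among 22 promoters, such shares are imprecise. These counts describe letters in a window and not occupied sites.

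Many genes of the secretory pathway were higher at 7 d, some by 2-fold or more. In a list of 39 genes for entry into the ER, folding, glycosylation and degradation, which was composed after the values had been seen, 36 were members. Of these, 17 rose and none fell, with a median of 0.92, and Sec61b alone had a negative difference (571 and 343 FPKM, -0.73). Txndc5, a disulfide isomerase abundant in plasma cells, was at 129, 55.2 and 184 FPKM in the naive, 24 h and 7 d libraries (1.72), and Pdia4, another isomerase, at 104, 43.4 and 144 (1.71). Hspa5 (BiP), the main ER chaperone, was at 289, 155 and 346 FPKM (1.15). Hsp90b1 (GRP94) was at 311, 124 and 267 FPKM (1.10). Fkbp11, a prolyl isomerase of secretory cells, was at 8.92, 4.21 and 17.5 FPKM (1.83). In the list of heat shock genes and chaperones, 7 of 18 members rose, and all 7 (Pdia4, Creld2, Hspa5, Pdia6, Manf, Hsp90b1 and Sdf2l1) act in the ER. The plasma cell list moved with this list, and its part in the result was not tested.

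Several of these promoters share the ER stress response element, which the transcription factors ATF6 and NF-Y bind together in the response to unfolded proteins. It has 2 parts, CCAAT and CCACG, with 9 bases of any kind between them, and its first part is also a CCAAT box. It was found on either strand in 35 of 27025 RefSeq promoters (0.130%) and in 11 of the 5604 members with a promoter (0.196%). Of these 11 members, 6 rose, whereas 2.34% of all members did. The stretches around the element in these 6 genes are printed 5′ to 3′ along the strand of the gene to show how alike the element is, with its 2 parts in capitals (CCAAT and CCACG, or ATTGG and CGTGG where it lies on the other strand).
Derl3: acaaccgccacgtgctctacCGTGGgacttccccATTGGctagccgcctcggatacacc
Creld2: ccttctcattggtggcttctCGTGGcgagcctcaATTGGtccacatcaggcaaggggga
Hspa5: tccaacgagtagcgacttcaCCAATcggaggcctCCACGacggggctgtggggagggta
Pdia6: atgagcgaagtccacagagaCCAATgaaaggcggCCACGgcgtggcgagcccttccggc
Hsp90b1: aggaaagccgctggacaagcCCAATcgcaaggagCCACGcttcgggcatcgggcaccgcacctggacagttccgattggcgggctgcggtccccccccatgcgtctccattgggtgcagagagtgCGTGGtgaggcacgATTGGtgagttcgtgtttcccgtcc
Syvn1: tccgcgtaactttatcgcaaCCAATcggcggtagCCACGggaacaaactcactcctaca

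In GRCm38.p6 these stretches lie at chr10:75893222-75893280 (Derl3), chr15:88819500-88819558 (Creld2), chr2:34772005-34772063 (Hspa5), chr12:17266471-17266529 (Pdia6), chr10:86705513-86705676 (Hsp90b1, minus strand) and chr19:6046512-6046570 (Syvn1), all within the promoter window of the gene. The promoter of Hsp90b1 holds 2 copies and each of the others 1. Creld2 was at 30.1 FPKM in MY 24h and 76.2 in MY 7d (1.31), Pdia6 at 66.5 and 147 (1.13), and Syvn1, the ubiquitin ligase of ER-associated degradation, at 22.2 and 45.8 (1.01). The other 5 members with the element stayed within 2-fold. Their differences were 0.89 for Calr, 0.49 for Dnajc3, 0.45 for Canx, 0.09 for Ero1lb and -0.25 for Pan2. Of the 30 secretory genes with a promoter, 9 held the element.

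**Figure D3:**
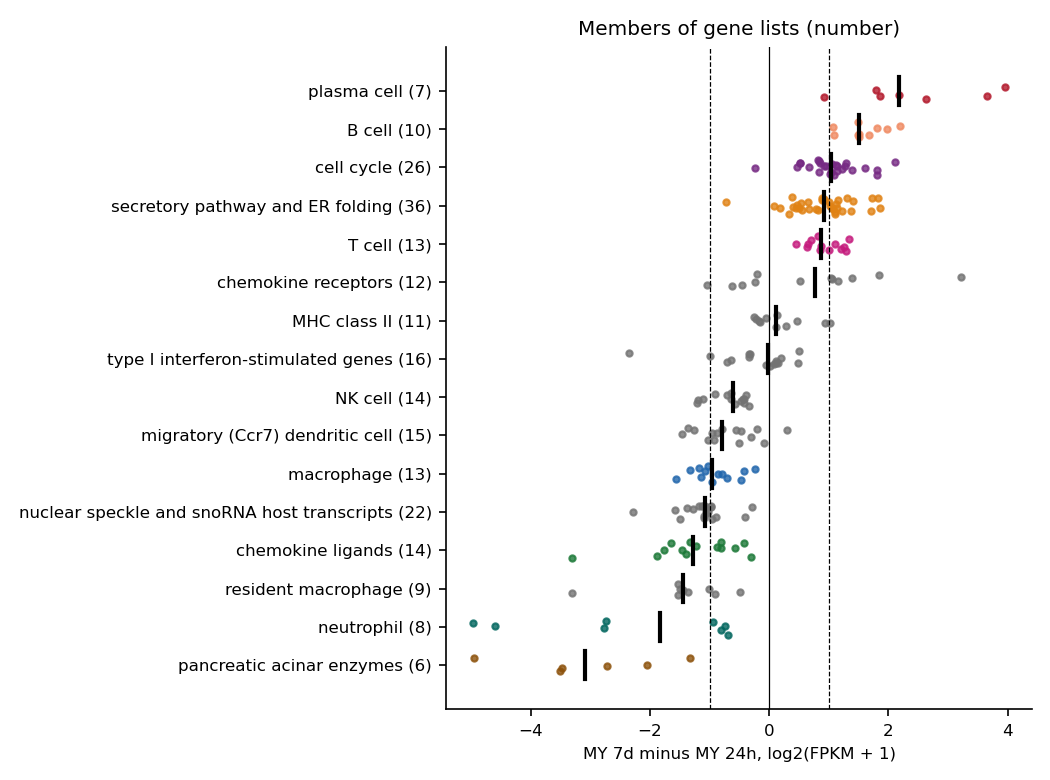
Difference MY 7d minus MY 24h on the log2(FPKM + 1) scale (horizontal axis) of the members of 16 gene lists, with 1 point per gene, a black bar at the median of each list and dashed lines at 2-fold. Plasma cell, B cell and cell cycle genes lie to the right with medians of 2.18, 1.51 and 1.04, and macrophage, neutrophil and pancreatic genes to the left with medians of -0.95, -1.84 and -3.09.

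Macrophage genes were lower at 7 d than at 24 h. All 13 members of the macrophage list had a negative difference, 6 of them of 2-fold or more, with a median of -0.95. Of the 13, 2 were members only through MY 24h, and 1 of these fell. Of the 11 at 10 FPKM or more in both libraries 5 fell. The 3 chains of complement C1q fell. C1qa was at 315, 795 and 315 FPKM in the naive, 24 h and 7 d libraries (-1.33), C1qb at 384, 939 and 412 (-1.19), and C1qc at 375, 1029.8 and 465 (-1.15). Cd14, a coreceptor for lipopolysaccharide, was at 7.33, 34.9 and 11.2 FPKM (-1.56), and the mannose receptor Mrc1 at 5.46, 18.5 and 8.60 (-1.02). The first 3 defining genes stayed within 2-fold, with differences of -0.85 for Emr1, -0.70 for Csf1r and -0.95 for Mertk. After rescaling to a sum of 1000000, 4 of the 13 fell by 2-fold or more. The mean level of the list on the log2(FPKM + 1) scale was 5.79, 6.91 and 6.00, so that MY 24h was the highest of the 3 and MY 7d and MY naive were close.

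The median of the resident tissue macrophage list was lower still. Of 9 members of that list, 7 fell, with a median of -1.44, although 5 of the 9 were members only through MY 24h. Folr2 (folate receptor beta) was at 9.86, 25.7 and 8.45 FPKM (-1.50), the lectin Clec10a at 10.3, 28.4 and 9.21 (-1.53), and the scavenger receptor Marco at 202, 537 and 208 (-1.36). Timd4, which binds phosphatidylserine on dying cells, was at 23.5, 38.8 and 27.3 FPKM (-0.49). Cd163 and Lyve1 were no members, at 5.67 and 1.79 FPKM in MY 24h, and Vsig4 was listed at 0 in both libraries. Of the Cd209 lectins, 3 of 4 members fell, among them Cd209b (SIGN-R1), a receptor of lymph node and marginal zone macrophages, at 324, 976 and 458 FPKM (-1.09). The Cd209 genes lie in 1 cluster and resemble each other in sequence, so reads may be split among them.

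On the log2(FPKM + 1) scale, and short RNAs apart, the gene with the largest fall was Retnla (RELM-alpha), a secreted protein of alternatively activated macrophages, with a difference of -5.00. By the plain ratio Camp and Ngp, described below with the neutrophil genes, fell further (to 0.00165 and 0.0160 times their level), and Cela2a was listed at 0 in MY 7d. Retnla was at 23.6 FPKM in MY naive, 221 in MY 24h and 5.97 in MY 7d. Its value at 7 d was 0.0270 times that at 24 h. Retnla spans chr16:48842665-48844574 on the plus strand in NCBI37/mm9, with 4 exons. Of the 9 members of the alternative activation list 5 fell, with a median of -1.02. They were Retnla, Clec10a, Chil3 (54.0 and 18.1 FPKM, -1.53), Ccl17 (58.7 and 20.5, -1.47) and Mrc1. Of these, 3 (Retnla, Clec10a and Mrc1) were members only through MY 24h, so the rule of membership set their direction. Arg1 was not among the members. Of 12 genes of large peritoneal macrophages 5 were members, of which 3 fell and none rose. Fn1 (fibronectin), which large peritoneal macrophages express strongly, was at 1.87, 21.4 and 2.99 FPKM (-2.49), and Alox15, another of their genes, at 1.88, 32.6 and 15.5 FPKM (-1.02). The third was Cxcl13. Icam2, a defining adhesion molecule of these cells, went the other way, at 49.1, 32.9 and 56.7 FPKM (0.77), and Cd9 was at 117, 138 and 135 (-0.04). Gata6, the transcription factor that defines these cells, was at 0.298, 0.245 and 0.201 FPKM in the mesentery and was no member. Alox15 is also in the eosinophil list, of which 2 of 9 genes were members and both fell. Of these 2, 1 was a member only through MY 24h.

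Chemokine ligands were lower at 7 d. Of 39 ligands in the table, 14 were members, all with a negative difference, of which 8 fell, with a median of -1.28. Of the 14, 5 were members only through MY 24h, and of the other 9, at 10 FPKM or more in both libraries, 4 fell. Pf4 (CXCL4) was at 2.79, 23.9 and 1.52 FPKM (-3.31). Ccl6, the chemokine that the study followed, was at 34.3, 282 and 81.7 FPKM (-1.77), so that the value at 7 d was 0.290 times that at 24 h and above that of the naive library. Its neighbour Ccl9 was at 6.29, 33.6 and 8.38 FPKM (-1.88). Ccl8 and Ccl12, of the monocyte chemoattractant family, were at 22.4 and 15.3 FPKM in MY 24h and at 7.85 and 5.51 in MY 7d. Ccl4, which activated NK and T cells also release, was at 77.9, 53.4 and 16.4 FPKM (-1.65). Ccl5 was the most abundant ligand, at 1969, 1696 and 928 FPKM, with a difference of -0.87. The ligands Ccl19, Ccl21a, Ccl21b, Ccl26 and Cxcl15 were listed at 0 in both libraries.

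Among chemokine receptors more rose than fell. Of 12 members 6 rose (Ccr10, Cxcr5, Ccr9, Ccr6, Cxcr6 and Cxcr3) and 1 fell. Ccr10 and Ccr9 were members only through MY 7d, and the 1 that fell only through MY 24h, so the rule of membership set their direction. Of the 9 members at 10 FPKM or more in both libraries, 4 rose and 0 fell. Ccr6, a receptor of B cells and Th17 cells, was at 25.1, 17.4 and 39.8 FPKM (1.15), and Cxcr3, a receptor of effector T and NK cells, at 45.7, 28.1 and 59.0 (1.04). The gene that fell was Ccr3, the eotaxin receptor, at 0.371, 10.4 and 4.54 FPKM (-1.04). Ccr2 was at 36.6, 42.6 and 27.2 FPKM (-0.63). Ccr1, a receptor for CCL6, was below the limit of membership, at 2.81, 8.58 and 5.40 FPKM in the naive, 24 h and 7 d libraries.

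**Figure D4:**
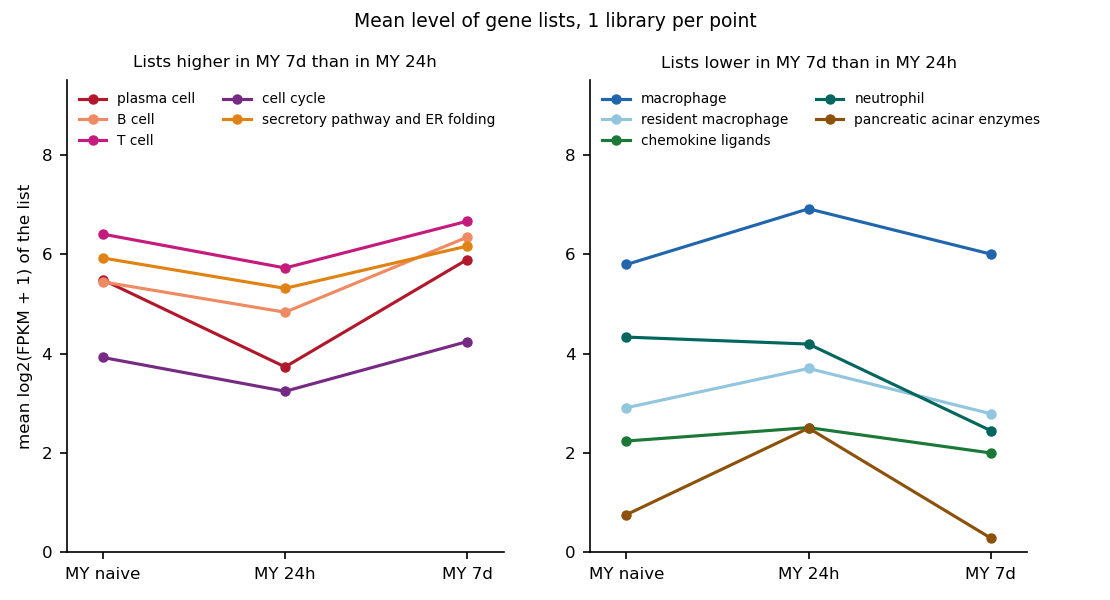
Mean level of 10 gene lists on the log2(FPKM + 1) scale (vertical axis) in MY naive, MY 24h and MY 7d, with 1 library per point and lines only to guide the eye. In the left panel the plasma cell list goes from 5.48 to 3.73 to 5.89, and in the right panel the macrophage list goes from 5.79 to 6.91 to 6.00 while the neutrophil list is lowest in MY 7d.

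Genes for the handling of lipid, heme and inflammatory mediators followed the macrophage list. Apoc2, an apolipoprotein, was at 11.2, 40.5 and 10.5 FPKM (-1.86), and Plin2, which coats lipid droplets, at 87.3, 178 and 80.1 (-1.14). Of 16 members of the lipid list 4 fell, with a median of -0.62. Hmox1 (heme oxygenase) was at 52.8, 102 and 32.4 FPKM (-1.63), and 3 of 14 members of the iron and heme list fell. Ltc4s, the enzyme that makes leukotriene C4, was at 14.4, 46.5 and 9.61 FPKM (-2.16), and 4 of 12 members of the eicosanoid list fell, although 1 did so after rescaling to a sum of 1000000. Among myeloid transcription factors, Cebpb was at 209, 611 and 228 FPKM (-1.42), and 3 of 20 members fell. Of 26 lysosomal members none fell, and the median was -0.23.

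Several neutrophil granule genes fell to a small part of their earlier level, and for these MY naive resembled MY 24h more than MY 7d. Camp (cathelicidin) was at 95.7 FPKM in MY naive, 32.0 in MY 24h and 0.0529 in MY 7d, and Ngp at 147, 38.0 and 0.608, with differences of -4.97 and -4.60. S100a8 was at 288, 219 and 32.1 FPKM (-2.73), S100a9 at 275, 156 and 22.1 (-2.77), and Lcn2 at 49.5, 19.3 and 2.05 (-2.73). Of 8 members of the neutrophil list 4 fell, with a median of -1.84, and the summed FPKM of its 13 genes was 910.3, 781 and 254. The other 4 members, Csf3r, G0s2, Mmp9 and Retnlg, had differences of -0.95, -0.80, -0.75 and -0.69, and Elane was listed at 0 in both libraries. These 4 had another course, with the highest mesenteric value in MY 24h. In the naive, 24 h and 7 d libraries Csf3r was at 5.99, 13.4 and 6.46 FPKM and G0s2 at 8.71, 19.5 and 10.8. Mmp9 was at 10.1, 22.1 and 12.7 FPKM and Retnlg at 40.5, 263 and 163. Of the 8 neutrophil members, 3 were members only through MY 24h, and 2 of these fell. Of the 5 at 10 FPKM or more in both libraries 2 fell. Saa3, an acute phase protein that macrophages and adipocytes make, had another course, with 14.6, 169 and 19.2 FPKM (-3.07). In a list of 14 acute phase and granule genes, composed after the values had been seen, all 11 members fell, 4 of which were members only through MY 24h.

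Digestive enzymes of the exocrine pancreas were higher at 24 h than in both other mesenteric libraries. Cela2a (an elastase) was at 1.78 FPKM in MY naive and 29.9 in MY 24h and was listed at 0 in MY 7d. Ctrb1 (chymotrypsinogen) was at 1.05 and 10.4 FPKM, and Pnlip (pancreatic lipase) at 0.944 and 10.1, before both were listed at 0. Prss2 (trypsin) was at 2.32, 12.7 and 1.08 FPKM (-2.71). In a list of 22 such enzymes, written after the first of them had been seen, 6 were members, all of them only through MY 24h, so that their direction was set by the rule of membership. Cela1 was at 2.91, 11.7 and 2.08 FPKM, and Ctrc at 5.85, 12.5 and 4.35. Summed over the list, the level was 20.7 FPKM in MY naive, 148 in MY 24h and 8.46 in MY 7d. In the omentum the same sum was 230.2, 209.8 and 56.2 FPKM. Glycam1, a ligand of L-selectin on the high endothelial vessels of lymph nodes, was at 15.4, 55.1 and 6.80 FPKM (-2.85), and Madcam1, the addressin of gut-associated vessels, at 1.34, 5.33 and 1.76 FPKM. The pancreas and lymph nodes adjoin the mesentery, and the part that such tissue had in the results was not tested.

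Transcripts of the nucleus also fell. In a list of 24 nuclear speckle and snoRNA host transcripts, composed after the values had been seen, 22 were members, of which 16 fell and none rose, with a median of -1.07. Of the 22, 7 were members only through MY 24h, and of the 15 at 10 FPKM or more in both libraries 10 fell. Neat1, the RNA scaffold of paraspeckles, was at 83.3, 94.7 and 18.6 FPKM in the naive, 24 h and 7 d libraries (-2.29). Malat1 was at 697, 1027 and 496 FPKM (-1.05), and Snhg1, a host of small nucleolar RNAs, at 20.3, 17.8 and 5.66 (-1.49). Rsrp1 was at 439, 386 and 147 FPKM (-1.39). Many members lay close to the limit, and 11 passed it after rescaling to a sum of 1000000. For Snhg1 and Rsrp1 the 7 d library was the one that stood apart from the other two, and not the 24 h library.

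The lists of interferon-stimulated genes and antigen presentation had medians near 0. Of 16 type I interferon-stimulated members 2 fell and none rose, with a median of -0.02. They were Mx1, at 22.7, 30.3 and 5.10 FPKM (-2.36), and Ifitm3, at 168, 234 and 117 FPKM, just past the limit. Of 18 interferon-gamma-induced members 1 rose, the GTPase gene Tgtp1 (3.41 and 10.6 FPKM, 1.39), and its near copy Tgtp2 was at 11.4 and 20.6. The 11 MHC class II members had a median of 0.11, and the one that rose was H2-Ob (45.6 and 93.9 FPKM, 1.03), a chaperone subunit of B cells. None of 19 MHC class I members, 35 ribosomal protein genes, 27 genes of oxidative phosphorylation, 18 of glycolysis or 15 immediate early genes changed by 2-fold, with medians of -0.16, 0.13, -0.05, 0.19 and -0.01. Class I genes outside the list did fall, namely H2-Q5 (66.8 and 26.0 FPKM, -1.33), H2-M2 (42.0 and 19.2, -1.09) and H2-L (162 and 78.1, -1.04), which were named after their values were seen. Class I genes are near-identical in sequence, so reads may be split among them.

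Dendritic cell lists were mixed. Of 15 members of the list for migratory dendritic cells 4 fell, with a median of -0.79. These were Ccl17, Cacnb3 (199 and 76.4 FPKM, -1.37), Il15ra (38.9 and 15.6, -1.26) and Nudt17 (146 and 71.1, -1.03), whereas the defining receptor Ccr7 was at 526, 761 and 661 FPKM with a difference of -0.20. Among 5 members for cross-presenting dendritic cells 1 rose and 1 fell. The transcription factor Batf3 fell from 92.1 to 40.7 FPKM (-1.16), and the integrin chain Itgae (CD103), which T cells also express, rose from 10.2 to 24.8 (1.21). Among 8 members for the second conventional subset, Kmo, an enzyme of tryptophan breakdown, rose from 10.8 to 25.7 FPKM (1.18) and none fell. Among 6 members for plasmacytoid dendritic cells, with a median of 0.60, the lectin Siglech fell from 68.9 to 30.1 FPKM (-1.17), while Ly6d (189 and 547, 1.53) and Ccr9 (7.21 and 20.6, 1.39), genes that lymphocytes also express, rose. Monocyte genes had a median of -0.01, with Ly6c2 at 184, 106 and 152 FPKM. Mast cell proteases were low and did not move together. Cma1 (a chymase) was at 21.9, 16.6 and 14.6 FPKM (-0.18). Tpsb2 was listed at 0 in MY naive and was at 7.09 and 19.9 FPKM in MY 24h and MY 7d, and Cpa3, below the limit of membership, was at 0.274, 0.717 and 9.57.

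The same interval was examined in the omentum. Its libraries are separate from those of the mesentery, but with 9 mice in all both tissues of a time point may come from the same mice, so they may not be independent of each other. There 367 of 7050 members rose (5.21%) and 445 fell (6.31%). Over the 6172 genes that were members in both tissues, the differences had a Pearson correlation of 0.34 and a Spearman correlation of 0.37, given as a description across genes that are not independent. Of the 161 genes that rose in the mesentery, 128 were members in the omentum, and 44 of them rose there, which is 27.3% of the mesenteric and 12.0% of the omental rises. Of the 262 that fell, 181 were members in the omentum and 78 fell there, 29.8% of the mesenteric and 17.5% of the omental falls. In the opposite direction, 14 mesenteric falls were omental rises, and 1 mesenteric rise, Sdf2l1, was an omental fall (62.5 and 127 FPKM in the mesentery, 305 and 127 in the omentum).

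B cell and macrophage genes moved the same way in both tissues. The omental and mesenteric medians were 1.54 and 1.51 for the B cell list and -2.46 and -0.95 for the macrophage list, with C1qa at 3282 and 259 FPKM in OM 24h and OM 7d. The chemokine ligands had medians of -1.01 and -1.28, and Ccl6 was at 1901 and 489 FPKM in the omentum. Other lists differed in sign. The NK cell list had an omental median of 2.94, over 6 members, against -0.60 over 14 in the mesentery. Ncr1 was at 0.612 and 11.7 FPKM in OM 24h and OM 7d. Most of the 6, Ncr1 among them, were members only through OM 7d, so the rule of membership set their direction. This rule did not enter the mean level of all 14 genes on the log2(FPKM + 1) scale. That level went from 1.08 to 3.28 in the omentum and from 5.57 to 4.89 in the mesentery. The cell cycle list had an omental median of -0.35 against 1.04, with Ccnb1 at 21.5 and 13.7 FPKM, and the secretory list -0.28 against 0.92, with Hspa5 at 608 and 462. Neutrophil genes had an omental median of 0.10 against -1.84, and S100a8 was at 7826 and 8381 FPKM there. Tnfrsf17 and Ccr10, which rose steeply in the mesentery, were at 2.24 and 0.145 FPKM in OM 24h and at 2.34 and 0.529 in OM 7d. With 1 library per condition none of these differences between tissues was tested.

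**Figure D5:**
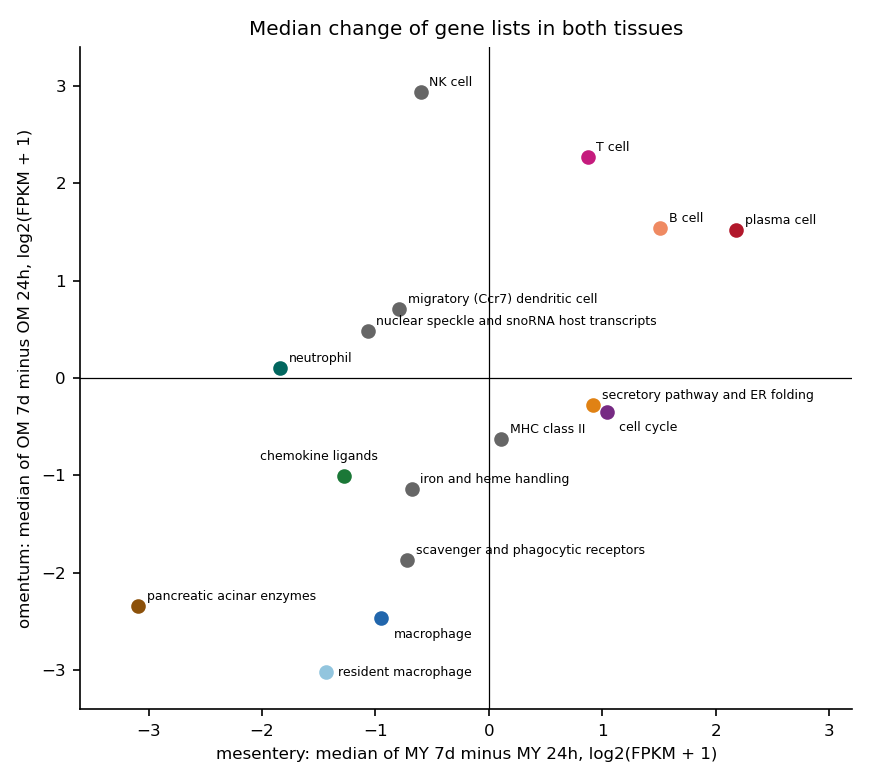
Median difference from 24 h to 7 d of 16 gene lists in the mesentery (horizontal axis) and the omentum (vertical axis), each over the members in that tissue and on the log2(FPKM + 1) scale. B cell, T cell and plasma cell lists are positive in both tissues and macrophage lists negative in both, while the NK cell list (-0.60 and 2.94) and the cell cycle list (1.04 and -0.35) have opposite signs. All omental members of the T cell list and most of the NK cell list were members only through OM 7d. The rule of membership set the direction of these.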

How the data were processed

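RNA of sorted CD45+CD11b+F4/80+ cells was sequenced in 6 libraries, 1 per tissue and time. The authors checked reads with FastQC 0.11.4, aligned them to mm9 with STAR 2.4.2a and deposited 1 table of FPKM per gene symbol, made with Cufflinks. Read counts were not used here, so counting error is unknown and the count-based test of the study could not be applied. FPKM are relative to the library, so a change in abundant genes shifts all others.

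Differences were taken as log2(FPKM + 1), with a pseudocount of 1 that understates changes of low genes, in Python 3.11.15 (numpy 2.4.6, pandas 2.3.3, matplotlib 3.10.9). The 2-fold threshold follows the study's methods. Named genes were the 15 largest rises and falls, short RNAs apart, up to 4 members per list with the largest differences, the sort markers, Ccl6 and Ccr1, and the first 3 markers of each cell type. Other genes named were chosen after their values were seen. The comparison, its members and 54 gene lists were chosen with earlier results of these data known, and 6 more lists were added after the values were seen. Counting, depth and motif steps were tested on simulated data. Promoters came from RefSeq (GRCm38.p6) and positions from GENCODE M1 (NCBIM37), which gave 1 position for 236 of 248 named genes. Alternatives were other pseudocounts, filters, scalings and thresholds. The values of 1 member of the macrophage list are not reported here.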

Additional observations from a re-analysis of the deposited data

Results flagged for a closer look

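In 12 genes, short RNAs apart, the change from 24 h to 7 d was 2-fold or more in both tissues and opposite in direction. Of these, only Clu, Gadd45g and Sdf2l1 were at 10 FPKM or more at both times in both tissues. For Tpm2, Gas5 and 1600020E01Rik the rule of membership set both directions. It set the mesenteric direction of Fabp4 and the omental direction of Adora2a, Gm11974, Mmp23, Ppp1r14a and Hbb-b1. With 1 library per condition the difference between tissues was not tested. On the log2(FPKM + 1) scale, Fabp4, a fatty acid binding protein of adipocytes and macrophages, had a difference of -1.68 in the mesentery and 2.40 in the omentum. The adult beta-globin gene Hbb-b1 had -1.02 and 6.01, and its omental value rests on a level of 0.0437 FPKM in OM 24h. Globin genes resemble each other closely, so reads may be split among them. Sdf2l1, an ER chaperone component, had 1.01 in the mesentery and -1.26 in the omentum.

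The other 9 fell in the mesentery and rose in the omentum. The actin and myosin regulators Tpm2 and Ppp1r14a had mesenteric differences of -1.62 and -1.22 and omental differences of 1.37 and 1.94. The values were -1.24 and 2.04 for the matrix metalloproteinase gene Mmp23, -1.02 and 1.06 for Clu (clusterin), and -1.12 and 1.29 for the adenosine receptor Adora2a. They were -1.11 and 1.23 for Gadd45g, -1.09 and 1.11 for the snoRNA host Gas5, -1.81 and 1.33 for Gm11974, and -1.30 and 1.48 for 1600020E01Rik.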

How the results depend on the processing

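No paired analysis was possible because there is a single library for every time and tissue, and for the same reason none was left out. The counts of 161 rises and 262 falls became 92 and 145 with a pseudocount of 5, and 98 and 137 among genes at 30 FPKM or more. With a limit of 1 FPKM, or with none, 462 genes fell. At 1.5-fold 630 rose and 803 fell, and at 3-fold 27 and 58. Under the other filters and scalings both counts stayed within 1.5 times, and the median of all members lay between -0.01 and 0.10. Of 647 list medians recomputed, 27 moved by over 0.58 on the log2 scale and 0 reversed, and of 8752 gene values 70 moved and 0 reversed. The absence of replicates limits every value, and low FPKM values rest on few reads.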

Other observations

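Further genes changed by 2-fold or more between MY 24h and MY 7d. They were chosen after their values were seen, and each value comes from 1 library. Regulators of B cell development and signalling were higher in MY 7d. Bcl11a was at 12.9, 9.61 and 24.4 FPKM in MY naive, MY 24h and MY 7d, the adaptor Blnk at 43.2, 28.1 and 63.4, and Vpreb3, a chaperone of the pre-B cell receptor, at 47.1, 25.7 and 65.4. The T cell factor Lef1 was at 99.9, 67.0 and 145 FPKM. Phgdh and Psat1, which encode enzymes of serine synthesis, were at 24.1 and 8.83 FPKM in MY 24h and at 64.7 and 21.5 in MY 7d, and Scd1, a fatty acid desaturase, was at 12.9 and 41.9 FPKM. The monocarboxylate transporter Slc16a1 was at 7.89, 3.58 and 14.2 FPKM.

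Among the falls, some of which belong to the lists of interleukins and of oxidative stress genes, Il15 and its receptor chain Il15ra, which together present the cytokine to NK cells, were at 24.6 and 38.9 FPKM in MY 24h and at 9.49 and 15.6 in MY 7d. Il18 was at 54.5 and 23.7 FPKM. The metallothionein Mt1 was at 113, 219 and 69.1 FPKM in the naive, 24 h and 7 d libraries, and the stress-response genes Gadd45b and Cdkn1a at 238, 324 and 155 and at 46.2, 60.0 and 28.1. Lars2, which encodes mitochondrial leucyl-tRNA synthetase, was at 419.7, 348 and 83.6 FPKM, and Sap25, a component of the Sin3 complex, at 26.4, 22.7 and 1.94. For Lars2 and Sap25, MY 7d was the lowest of the mesenteric libraries by more than 2-fold, and Sap25 was at 0.375, 0.221 and 0.748 FPKM in OM naive, OM 24h and OM 7d.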
